A study of Homo sapiens with 25 samples.

Results

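RNA of A549 cells was compared between libraries made after transfection of an antisense oligonucleotide against a long noncoding RNA, candidate 42 ASO3, and libraries made after transfection of a control oligonucleotide. The comparison rests on 6 of the series' 25 libraries, chosen by their labels, with n = 3 for ASO3 and n = 3 for control. Of 59427 gene names in the deposited table, 14740 averaged 1 TPM or more (TPM is a length-corrected share of transcripts) over the A549 libraries and were tested. A549 is an established line of human lung adenocarcinoma. All groups received 25 nM of an oligonucleotide and were harvested 24 h later. The A549 groups were candidate 42 ASO3, candidate 42 ASO5 (a second oligonucleotide against the same RNA), candidate 240 ASO1 and candidate 240 ASO3 (against another noncoding RNA), and a control oligonucleotide sold as Control A by Qiagen. Candidate 42 is also called CHiLL1 in the labels. The same ASO3 and the same control were used in NCI-H460, an established line of large cell lung carcinoma, with 2 libraries a group. Whether the libraries of a group came from separate cultures is left unsaid in the labels, so p-values measure only the spread between these libraries. Each group is a single cell line with a single oligonucleotide at a single dose and time.

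Antisense oligonucleotides of this kind are short chemically modified DNA-like strands. Once inside the nucleus they pair with a complementary RNA, and the enzyme RNase H can cut the RNA strand of the pair. They are used against noncoding RNAs that stay in the nucleus, where the cytoplasmic machinery of small interfering RNAs is less active. An oligonucleotide may also pair with RNAs other than its target, including introns of unspliced transcripts, which is why several oligonucleotides are commonly tested against each target.

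In the 6 libraries 25132 to 26722 gene names had a value above 0, and mitochondrially encoded transcripts held 7.64% to 11.1% of the signal. Log2 levels correlated across genes at 0.966 to 0.982 within groups and at 0.953 to 0.969 between ASO3 and control libraries. On the first principal component of the 15 A549 libraries (24.6% of the variance), replicate 3 libraries lay between -71.9 and -3.55 and replicates 4 and 5 between -11.7 and 25.5. Of 13 markers fixed for A549, 9 averaged at least 1 TPM in both groups and 2, NKX2-1 (a lung lineage factor) and CDKN2A, were at 0. Their summed level was 16803 to 17935 TPM with ASO3 and 19374 to 23010 TPM in control. The summed level of 6 leukocyte markers was 45.6 to 55.1 TPM with ASO3 and 23.7 to 27.8 TPM in control, nearly all of it CD68, a lysosomal protein gene, at 48.9 ± 5.32 TPM with ASO3 and 23.3 ± 1.55 TPM in control (SD, n = 3 each). The leukocyte markers PTPRC and CD3E were at 0 in all 6 libraries. Markers of endothelium summed to 0.459 to 0.497 TPM with ASO3 and 0.342 to 0.700 TPM in control, and those of fibroblasts to 5.90 to 7.87 TPM with ASO3 and 5.02 to 5.92 TPM in control. Squamous markers summed to 0.519 to 0.791 TPM with ASO3 and 0.891 to 2.15 TPM in control, and neuroendocrine markers to 3.96 to 7.10 TPM with ASO3 and 5.93 to 6.58 TPM in control. The part of these differences in the results was not tested.

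The targeted RNA was lower in every ASO3 library than in any control library. The labels do not give a gene name for candidate 42, which was taken here as AC107959.3, annotated as an antisense transcript at chr8:23071377-23074488 on the minus strand (GRCh38). AC107959.3 stood at 1.13 TPM, 0 and 0.824 TPM in the ASO3 libraries, against 7.13, 5.12 and 10.6 TPM in control libraries. That is 8.55% of the control mean, with a log2 fold change of -2.93 (SE 0.37, limma, adjusted p = 2.11e-04). Without any 1 of the 6 libraries the log2 fold change lay between -3.26 and -2.41. AC107959.2, annotated on the opposite strand over the same bases, averaged 0.0491 TPM with ASO3 and 0.0866 TPM in control. How strand was handled is not stated in the sources at hand, so reads of the overlapping pair cannot be told apart. The value checks the labels only if candidate 42 is AC107959.3. In bulk RNA, fewer cells with a transcript and less of it per cell cannot be told apart.

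Genes beside the targeted RNA moved little. The nearest protein-coding gene is TNFRSF10B, a receptor for the death ligand TRAIL that begins 2.20 kb away. TNFRSF10B averaged 82.4 TPM with ASO3 and 91.0 TPM in control, a log2 fold change of -0.14 that did not pass (adjusted p = 0.587). Of 21 tested genes of a list around the locus, 2 rose and 1, AC107959.3 itself, fell. TNFRSF10D, a decoy receptor for TRAIL, stood at 19.9, 21.7 and 21.5 TPM with ASO3, against 15.2, 17.1 and 9.55 TPM in control (log2 fold change 0.61, adjusted p = 0.0315). CHMP7, a membrane-remodelling gene 169 kb away, rose by 0.39 (adjusted p = 0.0258). Leaving out single libraries ended the TNFRSF10D call in 4 of 6 cases and the CHMP7 call in 6 of 6. LOXL2, which encodes a collagen cross-linking enzyme, had a log2 fold change of -0.33 (adjusted p = 0.245).

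Across all genes, more fell than rose with ASO3. Limma called 1482 genes at an adjusted p under 0.05, which is 10.1% of those tested. The 505 genes called higher were 3.43% of genes tested, and the 977 called lower were 6.63%. Over all genes the median log2 fold change was 0.02. The called genes had a median of 0.71 among those higher and -0.76 among those lower, and 133 rose and 278 fell by at least 1 on the log2 scale. For 1474 of the called genes the ASO3 and control values did not overlap. Over all genes tested, 13.3% had all ASO3 values above the controls and 14.4% all below. Protein-coding genes made up 439 of the calls higher and 888 of the calls lower, out of 12037 tested. The total moved with single libraries, to 956 without ASO3 replicate 4 and to 833 without ASO3 replicate 5. It was 3064 without replicate 3 of every A549 group, an alternative added after the data were seen. Leaving out replicate 3 of ASO3 or of control alone gave 1182 or 1270. Leaving out candidate 240 ASO3 replicate 3, which enters only the shared estimate of the spread, gave 2041.

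The 12 protein-coding genes with the largest rise and an average of 5 TPM or more in either group were named by rule, as were the 12 with the largest fall. That rule also asked that the groups not overlap, so their separation is a description. APOE, which carries lipids between cells, stood at 375, 189 and 217 TPM in the ASO3 libraries, against 52.9, 31.2 and 30.6 TPM in control. Every ASO3 library thus lay above every control, with replicate 3 highest in both groups. The APOE log2 fold change was 2.73 (SE 0.31, adjusted p = 8.67e-05), and the means differed 6.81-fold.

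TRIM31, a ubiquitin ligase gene of gut epithelium, reached 23, 15.9 and 14.3 TPM with ASO3, against 4.69, 2.58 and 2.45 TPM in control (log2 fold change 2.31). LGALS4, a galectin of the intestinal lining, reached 10.5, 10.9 and 9.71 TPM with ASO3, against 2.04, 1.77 and 2.11 TPM in control (2.14). TFF1, a trefoil peptide secreted by gastric mucosa, reached 35.5, 18.9 and 24.0 TPM with ASO3, against 10.6, 4.56 and 4.31 TPM in control (2.0). For these 3 genes none of the ASO3 values overlapped a control value. The tight junction gene CLDN7 averaged 9.0 ± 2.11 TPM with ASO3 and 1.89 ± 0.318 TPM in control (SD, n = 3 each). TM4SF5, a tetraspanin-like membrane protein gene, averaged 8.01 ± 1.12 TPM with ASO3 and 2.10 ± 0.944 TPM in control. EPS8L3, related to the actin regulator EPS8, averaged 11.3 ± 1.61 TPM with ASO3 and 2.99 ± 0.811 TPM in control.

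The other 5 named rises were in RASD1, PGF, NR4A2, PHOSPHO1 and CYSRT1. RASD1, a small GTPase gene first known for its induction by dexamethasone, averaged 5.77 ± 0.971 TPM with ASO3 and 1.20 ± 0.196 TPM in control (log2 fold change 1.88). PGF, placental growth factor, a VEGF relative, averaged 6.76 ± 1.27 TPM with ASO3 and 1.51 ± 0.325 TPM in control. The orphan nuclear receptor gene NR4A2 stood at 15.1, 15.3 and 17.3 TPM with ASO3, against 3.49, 4.62 and 6.26 TPM in control (1.66). PHOSPHO1, a phosphatase active in bone mineralisation, averaged 6.80 ± 1.94 TPM with ASO3 and 1.62 ± 0.350 TPM in control. CYSRT1 averaged 13.0 ± 4.11 TPM with ASO3 and 3.34 ± 0.553 TPM in control. The calls of all 12 named rises held without any 1 of the 6 libraries (adjusted p at most 0.0387, for TFF1).

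**Figure D1:**
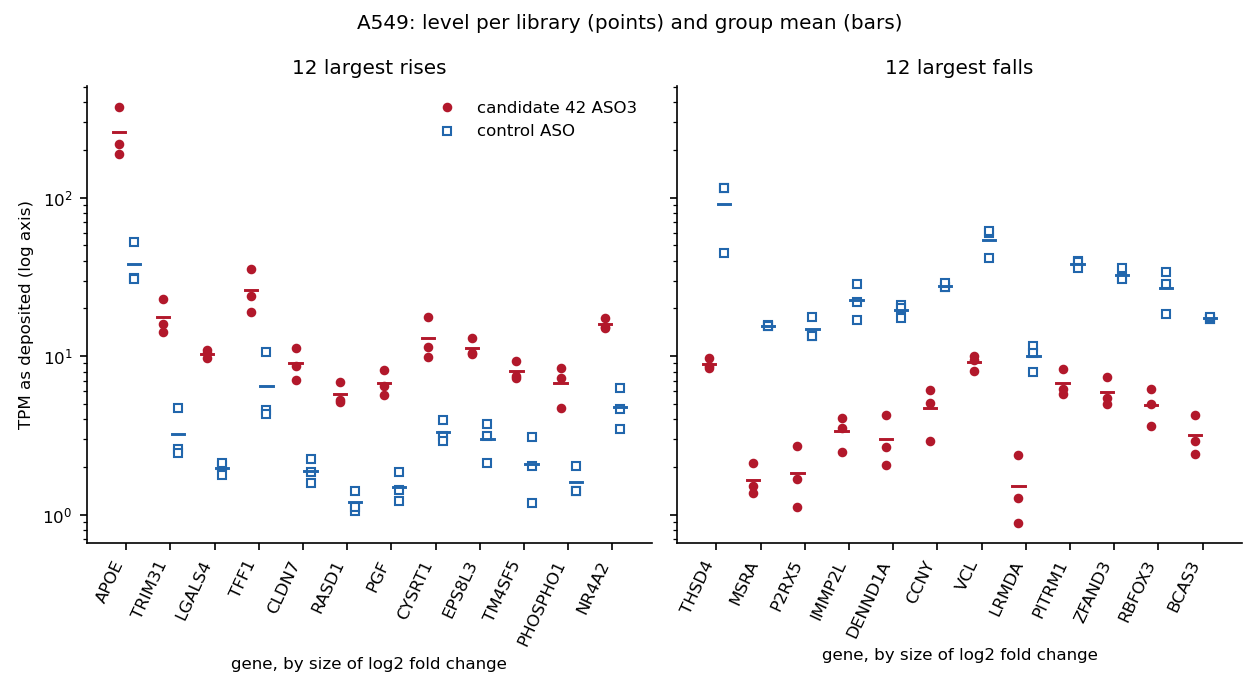
Level of the 24 protein-coding genes with the largest changes, in TPM on a log axis, in each candidate 42 ASO3 library (filled circles) and each control library (open squares), with short bars at the group means. Among the rises APOE has the highest values, 189 to 375 TPM with ASO3, and among the falls THSD4, first in order, has 8.48 to 9.71 TPM with ASO3 against 44.5 to 116 TPM in control.

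The largest falls were spread over genes of unlike function. THSD4, a matrix protein gene that aids the assembly of fibrillin fibres, stood at 8.67, 8.48 and 9.71 TPM with ASO3, against 44.5, 115 and 116 TPM in control (log2 fold change -3.17, SE 0.39, adjusted p = 1.60e-04). The ASO3 values lay close together, while control replicate 3 was far below the other controls. MSRA, which repairs oxidised methionine, stood at 2.11, 1.36 and 1.52 TPM with ASO3, against 15.5, 15.8 and 15.5 TPM in control (-2.91, SE 0.18, adjusted p = 7.62e-07). P2RX5, an ATP-gated ion channel gene, stood at 2.70, 1.67 and 1.12 TPM with ASO3, against 17.7, 13.4 and 13.5 TPM in control (-2.76).

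Both mitochondrial protease genes among these falls had every ASO3 value below every control value. IMMP2L, a subunit of the inner membrane peptidase, averaged 3.36 ± 0.811 TPM with ASO3 and 22.5 ± 5.77 TPM in control (log2 fold change -2.57). PITRM1, which degrades cleaved presequences in the mitochondrial matrix, stood at 8.31, 5.81 and 6.25 TPM with ASO3, against 39.8, 39.2 and 35.9 TPM in control (-2.43, adjusted p = 1.59e-06). VCL encodes vinculin, which links integrin adhesions to actin. VCL stood at 9.52, 10.1 and 8.02 TPM with ASO3, against 41.8, 59.6 and 62.0 TPM in control (-2.48, adjusted p = 6.83e-06).

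CCNY, a membrane-bound cyclin gene, averaged 4.68 ± 1.62 TPM with ASO3 and 27.9 ± 0.805 TPM in control. DENND1A, an exchange factor for the trafficking GTPase RAB35, averaged 3.00 ± 1.13 TPM with ASO3 and 19.5 ± 1.92 TPM in control. ZFAND3, a zinc finger gene, averaged 5.95 ± 1.28 TPM with ASO3 and 32.6 ± 2.90 TPM in control, with the smallest adjusted p of the 24 (3.19e-07). BCAS3 averaged 3.20 ± 0.975 TPM with ASO3 and 17.3 ± 0.222 TPM in control. RBFOX3, known as a splicing factor of neurons, averaged 4.95 ± 1.29 TPM with ASO3 and 27.0 ± 7.82 TPM in control. LRMDA, a gene of melanocyte differentiation, averaged 1.52 ± 0.778 TPM with ASO3 and 9.98 ± 1.82 TPM in control. The calls of all 12 named falls held without any 1 of the 6 libraries.

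Of the 4 named falls without a protein-coding annotation, AC107959.3 is described above. ZNF875, a zinc finger gene name absent from the annotation release used and therefore without coordinates, stood at 2.55, 2.42 and 2.50 TPM with ASO3, against 12.3, 13.8 and 14 TPM in control (log2 fold change -2.21, adjusted p = 3.19e-07). AC009878.1, annotated inside an intron of another gene on the same strand, averaged 2.51 ± 1.06 TPM with ASO3 and 9.62 ± 2.64 TPM in control (-1.79). Among rises, the antisense gene AC091729.2 stood at 13.5, 12.7 and 4.17 TPM with ASO3, against 1.11 and 0.522 TPM and a value listed at 0 in control (3.34). The long intergenic RNA AC084864.1 averaged 11.1 ± 2.58 TPM with ASO3 and 2.31 ± 1.01 TPM in control (2.10). The 3 remaining named genes of other biotypes were RNU6-1161P (2.18) and RNU6-722P (1.91), which rose, and AC008083.3 (-1.90), which fell. All 3 lost their calls without 5 of the 6 libraries in turn. RNU6-1161P and RNU6-722P are copies of a multigene family, so the split of reads among copies is uncertain.

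**Figure D2:**
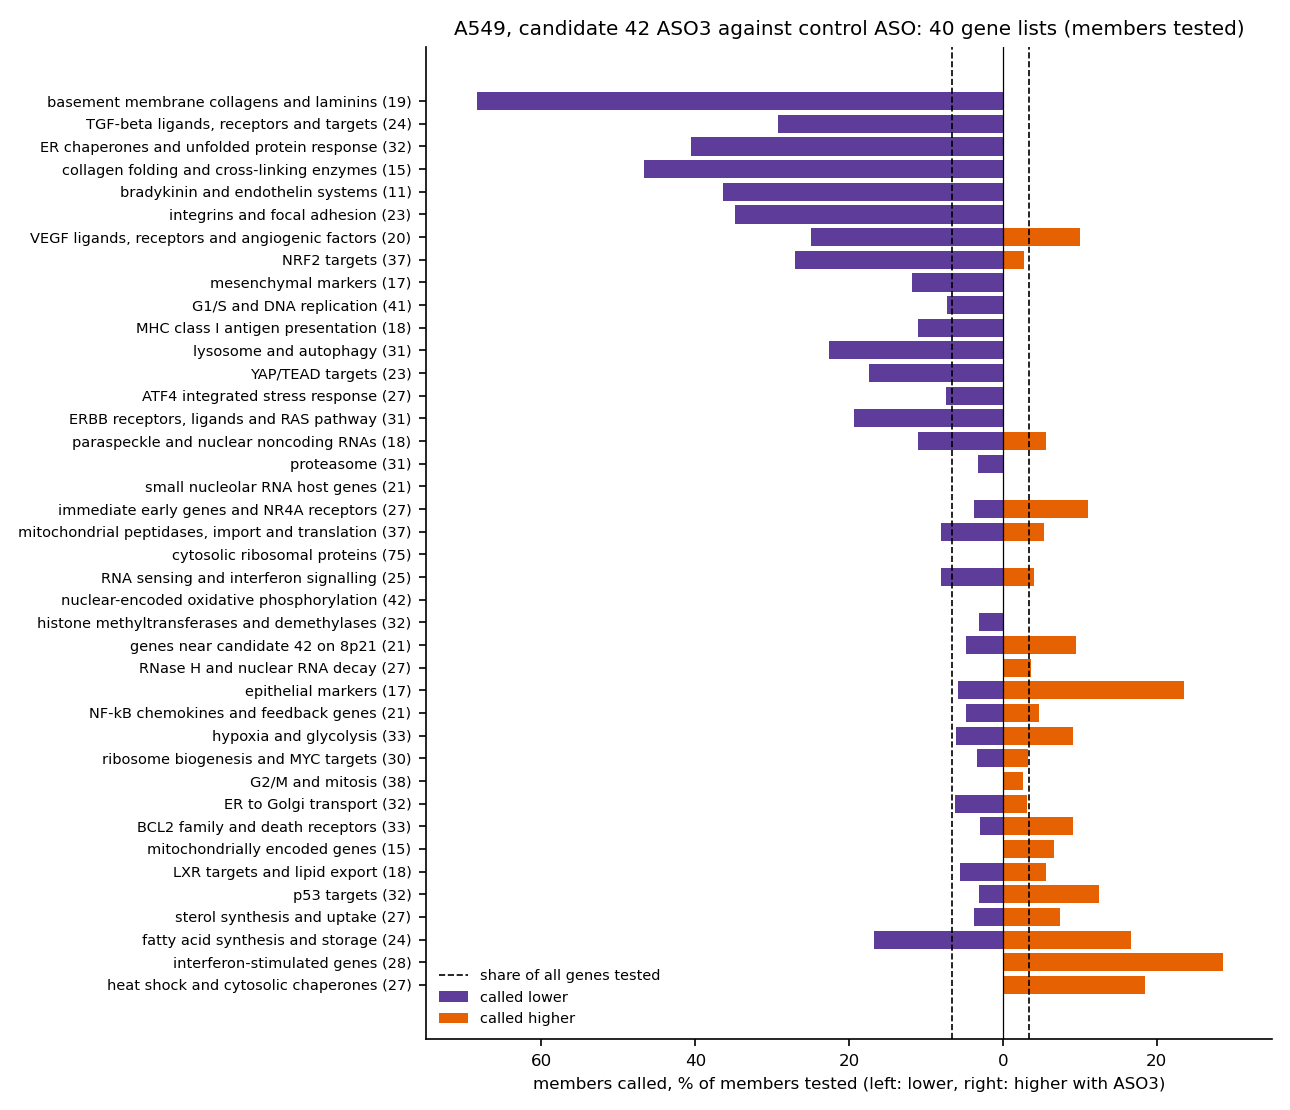
Share of tested members called lower (bars to the left) and higher (bars to the right) with candidate 42 ASO3 in A549, for 40 gene lists with the number of members tested in brackets and the lists ordered by their median log2 fold change. Dashed lines mark the shares over all genes, 6.63% lower and 3.43% higher, and the basement membrane list reaches 68.4% lower.

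Genes of protein folding in the endoplasmic reticulum (ER) were lower with ASO3. The ER lumen holds chaperones and disulfide isomerases that fold secreted proteins. When unfolded proteins accumulate there, the sensors ATF6, IRE1 (gene ERN1) and PERK (gene EIF2AK3) respond. The chaperones then rise, in part through a promoter sequence called the ER stress response element. Of 32 tested members of this list, 13 fell and 0 rose by limma, with 19 lower and 0 higher at an unadjusted p under 0.05. The list's median log2 fold change was -0.42, against 0.02 over all genes, and 28 members lay below 0. Every list count of ASO3 against control stands beside 6.63% lower and 3.43% higher over all genes tested.

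HSPA5, the main ER chaperone of the HSP70 family, stood at 158, 150 and 150 TPM with ASO3, against 253, 280 and 244 TPM in control (log2 fold change -0.76, SE 0.09, adjusted p = 1.63e-04). CALR, the lectin chaperone calreticulin, stood at 345, 306 and 301 TPM with ASO3, against 616, 574 and 506 TPM in control (-0.83). In both genes the ASO3 libraries agreed closely and lay well below every control. PDIA4, a disulfide isomerase gene, stood at 126, 112 and 110 TPM with ASO3, against 214, 227 and 186 TPM in control (-0.84, adjusted p = 1.28e-04). PDIA6 stood at 206, 210 and 207 TPM with ASO3, against 324, 337 and 309 TPM in control (-0.64). HYOU1, a large HSP70 relative that releases nucleotide from HSPA5, averaged 26.0 ± 1.2 TPM with ASO3 and 45.9 ± 6.25 TPM in control (-0.80).

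These 5 genes kept their calls without any 1 of the 6 libraries. The factor gene XBP1, a target and effector of IRE1, was below every control value in every ASO3 library (-0.60, adjusted p = 0.00655). DNAJB9, an ER co-chaperone gene raised by XBP1, had a log2 fold change of -0.26 that did not pass (adjusted p = 0.474). HERPUD1, of ER-associated degradation, had -0.32 (adjusted p = 0.143), with overlapping groups. XBP1 lies outside the naming rule and was chosen after its values were seen, as were HSP90B1 and CRELD2 below. The count of 13 lay between 11 and 13 without single libraries.

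Several promoters of this list carried the ER stress response element. The exact form, CCAAT and CCACG with any 9 bases between them, was searched on both strands in the 250 bases before the start of each RefSeq gene (GRCh38.p14, 35116 windows). It was found in 26 windows, or 0.0740% of them, and in 9 of the 30 list genes that had a window. Of those 9 genes 6 fell, with a median log2 fold change of -0.64, and of the 21 other list genes with a window 6 fell, with a median of -0.30. Of 7 tested genes outside the list that hold the element, 1 fell (the mannosyltransferase gene ALG12, -0.58), and their median was 0.12. A second form, ATTGG and CCACG with any 1 base between them, was found in 18 windows (0.0513%) and in 3 list genes, SDF2L1, HYOU1 and HERPUD1, of which 1 fell (median -0.54). Of 10 tested genes outside the list with the second form, 2 fell and their median was -0.16. The search was chosen after the list's values were seen, and a match is a description of the letters only. The promoters below belong to genes that fell and carry the element, whose end blocks CCAAT and CCACG, or their reverse complements CGTGG and ATTGG, are in capitals.
HSPA5 promoter, chr9:125241344-125241593, minus strand: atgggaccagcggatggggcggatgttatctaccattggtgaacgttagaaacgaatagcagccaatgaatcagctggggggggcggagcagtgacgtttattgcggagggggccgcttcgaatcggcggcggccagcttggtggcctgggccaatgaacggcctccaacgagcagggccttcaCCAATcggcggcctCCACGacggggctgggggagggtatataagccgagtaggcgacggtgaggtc
HSP90B1 promoter, chr12:103930160-103930409, plus strand: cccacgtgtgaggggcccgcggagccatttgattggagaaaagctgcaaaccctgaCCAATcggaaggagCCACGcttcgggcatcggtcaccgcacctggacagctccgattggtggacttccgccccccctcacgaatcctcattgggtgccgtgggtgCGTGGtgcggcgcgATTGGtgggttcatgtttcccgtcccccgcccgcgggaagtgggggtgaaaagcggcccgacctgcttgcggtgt
CRELD2 promoter, chr22:49918384-49918633, plus strand: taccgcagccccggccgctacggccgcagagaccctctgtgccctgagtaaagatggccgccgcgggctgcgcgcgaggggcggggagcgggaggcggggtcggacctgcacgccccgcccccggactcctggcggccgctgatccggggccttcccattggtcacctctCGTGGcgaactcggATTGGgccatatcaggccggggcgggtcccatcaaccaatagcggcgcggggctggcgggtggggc
CALR promoter, chr19:12938359-12938608, plus strand: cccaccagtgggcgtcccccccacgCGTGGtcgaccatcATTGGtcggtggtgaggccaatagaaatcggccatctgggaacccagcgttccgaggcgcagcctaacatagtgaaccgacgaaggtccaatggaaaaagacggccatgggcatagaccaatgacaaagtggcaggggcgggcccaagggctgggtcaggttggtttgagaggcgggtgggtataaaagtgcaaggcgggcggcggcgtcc
In the HSPA5 window the element begins 66 bases before the start. The HSP90B1 window holds it on both strands, beginning 194 and 89 bases before the start, and the CRELD2 and CALR windows hold it in reverse, at 80 and 225 bases. HSP90B1, the ER member of the HSP90 family, stood at 183, 219 and 213 TPM with ASO3, against 297, 375 and 334 TPM in control (log2 fold change -0.71). CRELD2, a secreted ER stress factor gene, stood at 17.7, 13.4 and 14.3 TPM with ASO3, against 36.0, 31.2 and 25.4 TPM in control (-1.0). CRELD2 had the lowest log2 fold change of the list.

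Genes of the basement membrane were lower still. This sheet under epithelia is built of type IV collagen and laminin trimers joined by nidogens and proteoglycans. Of 19 tested members 13 fell and 0 rose by limma, and 15 were lower and 0 higher at an unadjusted p under 0.05. The median was -0.67, and all 19 lay below 0 with ASO3, at -1.93 to -0.12. COL18A1, the collagen whose end fragment is endostatin, stood at 32.6, 27.4 and 30.5 TPM with ASO3, against 128, 116 and 105 TPM in control (log2 fold change -1.93, SE 0.11, adjusted p = 3.53e-07). COL4A1 stood at 2.94, 2.28 and 2.82 TPM with ASO3, against 6.72, 11.2 and 9.77 TPM in control (-1.59). Its partner COL4A2, transcribed from a shared promoter in the opposite direction, stood at 23.7, 13.5 and 15.4 TPM with ASO3, against 43.9, 46.3 and 45.6 TPM in control (-1.38). Both chains of the type IV trimer thus fell without overlap of the groups.

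Among other components, the proteoglycan gene AGRN stood at 40.8, 38.6 and 31.3 TPM with ASO3, against 105, 97.5 and 87.2 TPM in control (-1.38). The laminin chain gene LAMA5 stood at 110, 95.7 and 76.2 TPM with ASO3, against 289, 185 and 195 TPM in control (-1.23). The count of 13 lay between 9 and 13 without single libraries, and the 5 genes named as lower kept their calls throughout.

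In the list of collagen folding and cross-linking enzymes, some of which act outside the cell, 7 of 15 tested members fell and 0 rose, with a median of -0.41 (8 lower and 0 higher at an unadjusted p under 0.05). PLOD2, a lysyl hydroxylase gene, stood at 31.0, 36.8 and 37.2 TPM with ASO3, against 51.3, 62.2 and 62.1 TPM in control (log2 fold change -0.73). Its relative PLOD1 averaged 48.4 ± 4.32 TPM with ASO3 and 78.1 ± 9.35 TPM in control (-0.68). COLGALT1, which adds galactose to hydroxylysine, averaged 54.4 ± 4.23 TPM with ASO3 and 80.5 ± 1.34 TPM in control (-0.56). P4HA2, a prolyl hydroxylase subunit, fell by 0.52 on the log2 scale. BMP1, the protease that trims procollagen, had -0.58 and lost its call without ASO3 replicate 4 or 5. The list's count was 4 without either of those libraries.

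**Figure D3:**
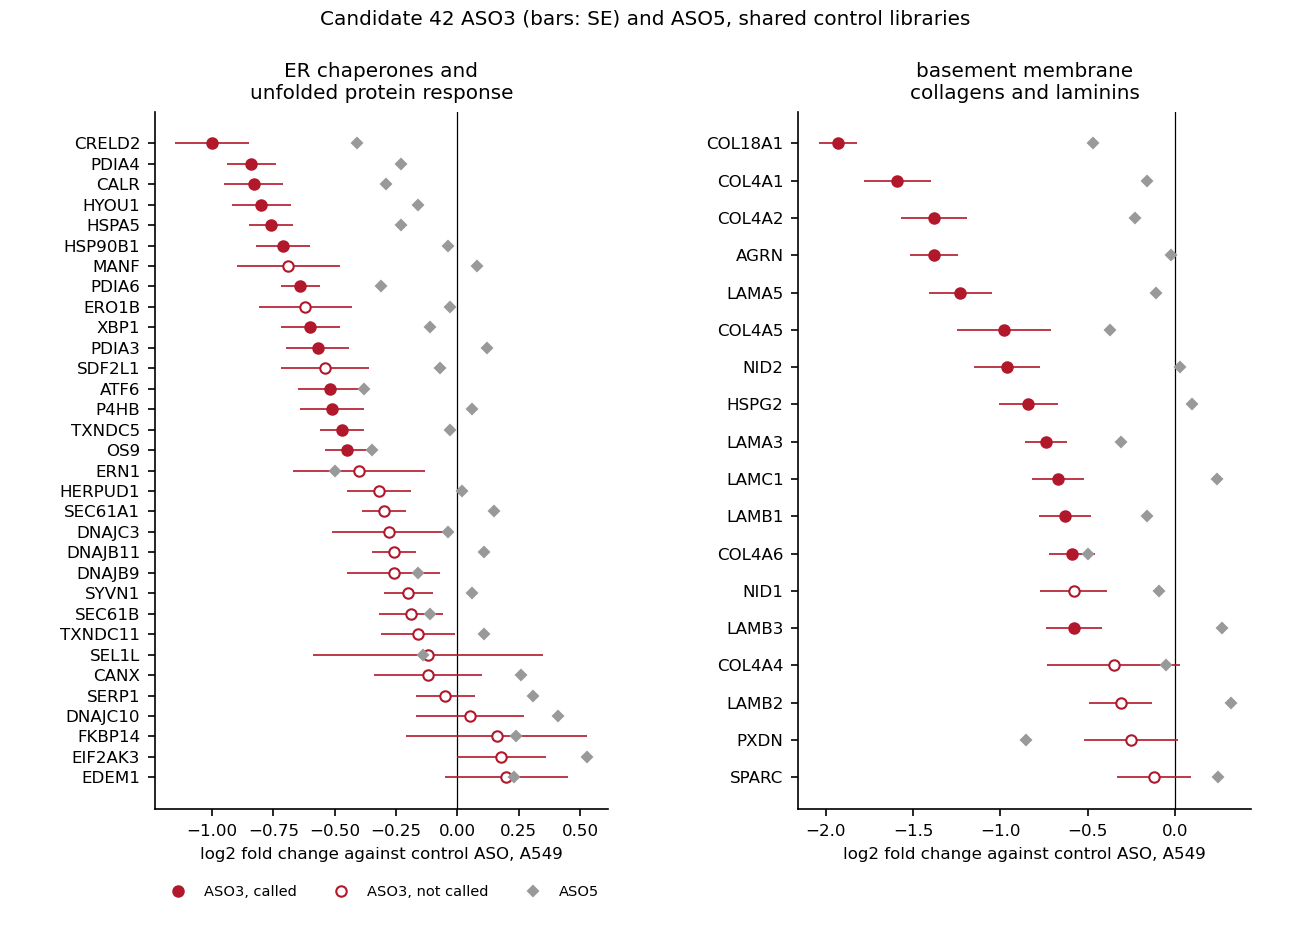
Log2 fold change against the control oligonucleotide in A549 for every tested member of the ER list (left, 32 genes) and for 18 of the 19 tested members of the basement membrane list (right), with ASO3 as circles (filled where called, bars for the SE) and ASO5 as grey diamonds. Both sets of values share the control libraries. Most ASO3 values lie left of 0, to -1.0 for CRELD2 and -1.93 for COL18A1, and the ASO5 medians over each whole list are -0.03 and -0.09.

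Cell adhesion genes followed the same direction. Integrins are the receptors for matrix, and vinculin and talin couple them to actin. Of 23 tested members 8 fell and 0 rose (11 lower and 0 higher at an unadjusted p under 0.05), with a median of -0.34. Beside VCL, CD44, the hyaluronan receptor gene, stood at 122, 107 and 124 TPM with ASO3, against 197, 270 and 274 TPM in control (log2 fold change -1.05). The integrin genes ITGB5 (-0.72) and ITGB1 (-0.77) fell, and ITGA5 had -0.34 without passing (adjusted p = 0.166). The count was 17 without replicate 3 of every A549 group.

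In the TGF-beta list, of a growth factor that signals through SMAD proteins and raises matrix genes, 7 of 24 tested members fell and 0 rose, with a median of -0.42 (13 lower and 0 higher at an unadjusted p under 0.05). SMAD3, its signal-carrying factor, stood at 51.9, 37.7 and 36.3 TPM with ASO3, against 99.8, 106 and 129 TPM in control (log2 fold change -1.41, SE 0.15, adjusted p = 6.64e-05). Every ASO3 value of SMAD3 lay below every control value. ID3, a helix-loop-helix inhibitor gene, averaged 186 ± 27.0 TPM with ASO3 and 331 ± 48.5 TPM in control (-0.83). The inhibitory SMAD gene SMAD6 fell by 0.55, and SMAD7 had -0.39 without passing (adjusted p = 0.143). Without replicate 3 of every A549 group the count was 14.

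Of 23 tested genes tied to YAP and its DNA-binding partners of the TEAD family, 4 fell and 0 rose, with a median of -0.08 (7 lower and 0 higher at an unadjusted p under 0.05). TEAD1 stood at 5.23, 5.34 and 5.11 TPM with ASO3, against 12.8, 30.1 and 36.7 TPM in control (log2 fold change -2.11, adjusted p = 0.00276). TEAD4 averaged 22.0 ± 2.41 TPM with ASO3 and 35.6 ± 4.04 TPM in control (-0.68). MYOF, a membrane repair gene, had -1.20 and AXL, a receptor kinase gene, -0.58. CCN2, the most used YAP readout, stood at 24.9 ± 3.28 TPM with ASO3 and 19.4 ± 7.72 TPM in control and did not pass (0.42, adjusted p = 0.272). Without control replicate 5, 2 members were called higher, and without replicate 3 of every A549 group 9 were called lower and 1 higher.

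Epithelial markers moved in both directions. Of 17 tested, 4 rose and 1 fell, with a median of 0.07. Beside CLDN7, the protease inhibitor gene SPINT1 stood at 3.68, 2.66 and 3.98 TPM with ASO3, against 0.923, 0.838 and 0.869 TPM in control (log2 fold change 1.5). KRT19 (0.62) and CLDN4 (0.58) rose and KRT18 fell (-0.39), and these 3 calls were lost without at least 4 of the 6 libraries in turn, which left 2 to 4 higher and 0 lower. The adhesion genes CDH1 (-0.55, adjusted p = 0.286) and EPCAM (-0.34, adjusted p = 0.272) did not pass. Of 17 tested mesenchymal markers 2 fell and 0 rose (4 lower and 1 higher at an unadjusted p under 0.05). COL5A1, a fibrillar collagen gene, stood at 1.89, 1.12 and 0.844 TPM with ASO3, against 7.55, 6.71 and 6.96 TPM in control (-2.13), and FN1, fibronectin, averaged 44.1 ± 5.92 TPM with ASO3 and 79.9 ± 13.6 TPM in control (-0.84). VIM, vimentin, had 0.14 (adjusted p = 0.570).

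Of the 40 lists, the interferon-stimulated genes had the largest share of rises. Interferons and the sensors of double-stranded RNA raise these antiviral genes, among them the oligoadenylate synthetases, which activate RNase L. Of 28 tested members 8 rose and 0 fell (12 higher and 0 lower at an unadjusted p under 0.05), with a median of 0.27. OAS1 stood at 86.2, 96.5 and 98.0 TPM with ASO3, against 40.4, 48.2 and 41.4 TPM in control (log2 fold change 1.10, SE 0.14, adjusted p = 2.15e-04). OASL, its relative, stood at 2.76, 2.13 and 1.87 TPM with ASO3, against 0.392, 0.559 and 0.568 TPM in control (1.44). IFIT3, which aids in the recognition of foreign RNA, averaged 5.10 ± 0.683 TPM with ASO3 and 2.58 ± 0.352 TPM in control (0.86). ISG15, a ubiquitin-like modifier gene, averaged 34.6 ± 8.11 TPM with ASO3 and 13.7 ± 3.18 TPM in control (1.31), a call lost without ASO3 replicate 3 or control replicate 5, and UBE2L6, its conjugating enzyme, rose by 0.46. MX1, a common readout of type I interferon, stood at 1.11 ± 0.324 TPM with ASO3 and 1.29 ± 0.324 TPM in control (-0.16, adjusted p = 0.852). The list's count was 5 without ASO3 replicate 4 or without ASO3 replicate 5.

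The sensors and signal carriers upstream showed few calls, 1 higher and 2 lower of 25 tested, with a median of 0.05. The Janus kinase gene TYK2 stood at 14.4, 11.3 and 10.4 TPM with ASO3, against 41.6, 32.4 and 30.4 TPM in control (log2 fold change -1.49, adjusted p = 8.67e-05). IRF5 rose by 0.65, and the interferon gamma receptor gene IFNGR1 fell by 0.52, a call lost without replicate 5 of either group. The RNA helicase sensor genes DDX58 (0.35, adjusted p = 0.302) and IFIH1 (-0.39, adjusted p = 0.315) did not pass. Without control replicate 3, 4 members were called lower, and without replicate 5 of either group 1 was. In the NF-kB list CXCL8, a neutrophil chemokine gene, rose (1.03) and CCL2, a monocyte chemokine gene, fell (-1.32, adjusted p = 0.00127), 2 calls among 21 tested. The CXCL8 call was lost without control replicate 4 (adjusted p = 0.0510).

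In lipid metabolism APOE stood out from its list. Of 18 tested targets of LXR, the sterol-sensing nuclear receptor, and lipid export genes, APOE alone rose and LPCAT3, a phospholipid remodelling enzyme gene, alone fell (-0.30, lost without any 1 of the 6 libraries). The list had 2 higher without control replicate 3 and also when the compared groups were fitted alone, and 4 higher and 2 lower without replicate 3 of every A549 group. The cholesterol exporter genes ABCA1 (log2 fold change 0.75, adjusted p = 0.0647) and ABCG1 (0.24, adjusted p = 0.368) did not pass. Of 24 fatty acid genes 4 rose and 4 fell, with a median of 0.27. FASN, fatty acid synthase, stood at 513, 408 and 403 TPM with ASO3, against 295, 217 and 170 TPM in control (0.98), and the elongase gene ELOVL6 averaged 111 ± 12 TPM with ASO3 and 56.4 ± 8.35 TPM in control (0.98). ACSS2, which makes acetyl-CoA from acetate, rose by 0.77. In the other direction ACACA, the carboxylase that supplies FASN, fell by 1.02, and HILPDA, a lipid droplet gene, by 0.77 on the log2 scale. Of 27 sterol genes 2 rose, among them IDI1 (0.70), and 1 fell, with a median of 0.23. The sterol counts were 12 higher and 3 lower without replicate 3 of every A549 group.

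Stress pathways gave unlike counts. Of 37 tested targets of NRF2, the oxidative stress factor, which is active in A549 through loss of its inhibitor KEAP1, 10 fell and 1 rose, with a median of -0.24. ABCC3, a drug efflux pump gene, stood at 68.2, 72.3 and 74.3 TPM with ASO3, against 172, 171 and 168 TPM in control (log2 fold change -1.24, adjusted p = 1.64e-04). TRIM16L averaged 193 ± 7.82 TPM with ASO3 and 311 ± 8.37 TPM in control (-0.69), while the glutathione peroxidase gene GPX2 averaged 1676 ± 150 TPM with ASO3 and 961 ± 131 TPM in control (0.81). The count of falls was 4 without control replicate 3 or 4 and without ASO3 replicate 4 or 5, and 17 without replicate 3 of every A549 group. Of 27 cytosolic chaperones 5 rose and 0 fell (14 higher and 0 lower at an unadjusted p under 0.05), with 26 above 0 and a median of 0.30, so most members of the cytosolic list lay above 0, where most of the ER list lay below. TCP1, a subunit of the ring-shaped chaperonin, stood at 349, 327 and 335 TPM with ASO3, against 238, 281 and 229 TPM in control (0.44), and kept its call without any 1 library. The list's count was 1 without ASO3 or control replicate 5, 2 without control replicate 3 or ASO3 replicate 4, 3 without ASO3 replicate 3 and 7 without control replicate 4. It was 11 without replicate 3 of every A549 group.

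Of 32 tested p53 targets 4 rose (12.5%) and 1 fell (3.12%), with a median of 0.20, beside 3.43% higher and 6.63% lower over all genes. The rises were in MDM2 (log2 fold change 0.79), BTG2 (0.52), CCNG1 (0.39) and XPC (0.35), and the fall was in PLK2 (-0.47). CDKN1A, the cell cycle inhibitor p21, averaged 176 ± 16.1 TPM with ASO3 and 144 ± 17.5 TPM in control and did not pass (0.29, adjusted p = 0.106). These counts were 0 and 0 without ASO3 replicate 4 or without ASO3 replicate 5, between 1 and 3 rises without the other libraries in turn, and 10 and 2 without replicate 3 of every A549 group. Of 31 lysosomal genes 7 fell and 0 rose (10 lower and 0 higher at an unadjusted p under 0.05), among them LAMP1 (-0.77) and the sphingolipid activator PSAP (-0.56), both lost under no single library. That count was 2 without ASO3 replicate 4 or 5 and 4 without control replicate 3 or 5. In the list for DNA replication and the G1/S step 3 of 41 genes fell, a share of 7.32%, near the 6.63% over all genes. Among them CCND3, a G1 cyclin gene, averaged 235 ± 12.4 TPM with ASO3 and 358 ± 48.1 TPM in control (-0.60). Of 38 mitotic genes KIF20A alone rose (0.45, lost without 4 of the 6 libraries in turn), a share of 2.63%, against 3.43% over all genes. The G1/S count was 1 without ASO3 replicate 5. Without replicate 3 of every A549 group the counts were 14 lower of the G1/S list, and 4 higher and 2 lower of the mitotic list.

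Growth factor signalling genes held several strong single changes. In the list of 27 immediate early genes and their relatives, NR4A1 stood at 143, 110 and 110 TPM with ASO3, against 62.2, 40.6 and 43.7 TPM in control (log2 fold change 1.32, adjusted p = 7.58e-05). Together with NR4A2 and NR4A3 (1.17, lost without 4 of the 6 libraries) all 3 members of this receptor family rose, while the other called gene of that list, KLF10, fell by 0.53. In the angiogenic list 2 of 20 rose (PGF and CXCL8) and 5 fell, with a median of -0.26. The guidance factor gene SLIT3 stood at 2.38, 1.08 and 1.84 TPM with ASO3, against 9.53, 7.85 and 7.97 TPM in control (-2.02). SEMA3A fell by 1.58 and the receptor gene FGFR1 by 0.70, and the count of falls was 3 without replicate 4 or 5 of either group. Of 31 genes of the ERBB receptors and RAS pathway 6 fell and 0 rose (6 lower and 3 higher at an unadjusted p under 0.05), among them the ligand genes NRG2 (-1.44) and AREG (-0.63) and the ERBB inhibitor LRIG1 (-1.23).

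Of 11 tested receptors and enzymes of the bradykinin, endothelin and related systems 4 fell and 0 rose (6 lower and 0 higher at an unadjusted p under 0.05). LPAR1, a lysophosphatidic acid receptor gene, stood at 9.10, 7.57 and 7.66 TPM with ASO3, against 19.7, 25.8 and 23.9 TPM in control (log2 fold change -1.45). ECE1, the endothelin-converting enzyme gene, averaged 28.6 ± 2.06 TPM with ASO3 and 55.4 ± 5.35 TPM in control (-0.94). The bradykinin receptor gene BDKRB2 fell by 1.27 and BDKRB1 by 0.87, and the BDKRB1 call was lost without control replicate 3 or ASO3 replicate 5. The count was 8 without replicate 3 of every A549 group.

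Several lists held single sharp falls amid members that were not called. PSMB4, a proteasome core subunit gene, stood at 172, 140 and 143 TPM with ASO3, against 457, 393 and 347 TPM in control (log2 fold change -1.39, adjusted p = 9.48e-05), and was the only one of 31 proteasome genes called. SMYD3, a lysine methyltransferase gene, stood at 4.79, 3.49 and 4.37 TPM with ASO3, against 13.9, 14 and 14.4 TPM in control (-1.64), and was the only one of 32 histone methylation genes called. Among 75 cytosolic ribosomal protein genes limma called 0, with 0 at an unadjusted p under 0.05 and a median of 0.05. The 42 nuclear genes of oxidative phosphorylation gave 0 calls, with 2 lower and 0 higher at an unadjusted p under 0.05, and the 21 small nucleolar RNA host genes gave 0 calls and 0 at an unadjusted p under 0.05. RNASEH1, the enzyme that acts on oligonucleotide pairs, averaged 30.6 ± 0.807 TPM with ASO3 and 27.8 ± 3.08 TPM in control (0.14, adjusted p = 0.521).

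Long genes fell far more often than short ones. Among 14246 tested genes with an annotated length, 4.21% of those under 50 kb were called lower, 8.78% of those of 50 to 200 kb, 23% of those of 200 to 500 kb and 41.0% of the 117 over 500 kb. Calls in the other direction went from 4.37% in the shortest class to 1.71%, 0.413% and 0% in the longest. The median log2 fold change was 0.05, -0.01, -0.27 and -0.58 in the same order, and 100 of the 117 longest genes lay below 0. Genes over 200 kb were 215 of the 977 called lower and 3 of the 505 called higher. The median length was 65.2 kb among genes called lower, 15.7 kb among those called higher and 27.0 kb among all tested. Median control levels fell with length too, at 14.7, 12.5, 9.80 and 7.15 TPM, and their part in the pattern was not tested.

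Of the 12 protein-coding genes named as falls, LRMDA spans 1129 kb, IMMP2L 899 kb, BCAS3 715 kb, THSD4 686 kb and DENND1A 550 kb. At the other end P2RX5 spans 24.2 kb and PITRM1 35.1 kb, so sharp falls were not confined to long genes. The class over 500 kb kept shares of 30.8% to 45.3% called lower without single libraries and had 56.4% without replicate 3 of every A549 group. With no filter on low values it held 356 genes, of which 11% were called lower. Shorter classes moved more with single libraries. Without ASO3 replicate 5, 2.24% of genes under 50 kb were called lower and 2.29% higher, and 5.59% of those of 50 to 200 kb and 14% of those of 200 to 500 kb were called lower. Without ASO3 replicate 4 the class under 50 kb had 2.59% lower and 2.83% higher, and that of 50 to 200 kb 5.80% lower. Of genes of 200 to 500 kb, 15.2% were lower without control replicate 4 and 14.9% without control replicate 5. The share called higher of 50 to 200 kb lay between 0.659% and 1.37% without single libraries. With the compared groups fitted alone the shares lower were 2.02%, 4.67%, 15% and 29.1% in order of length.

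**Figure D4:**
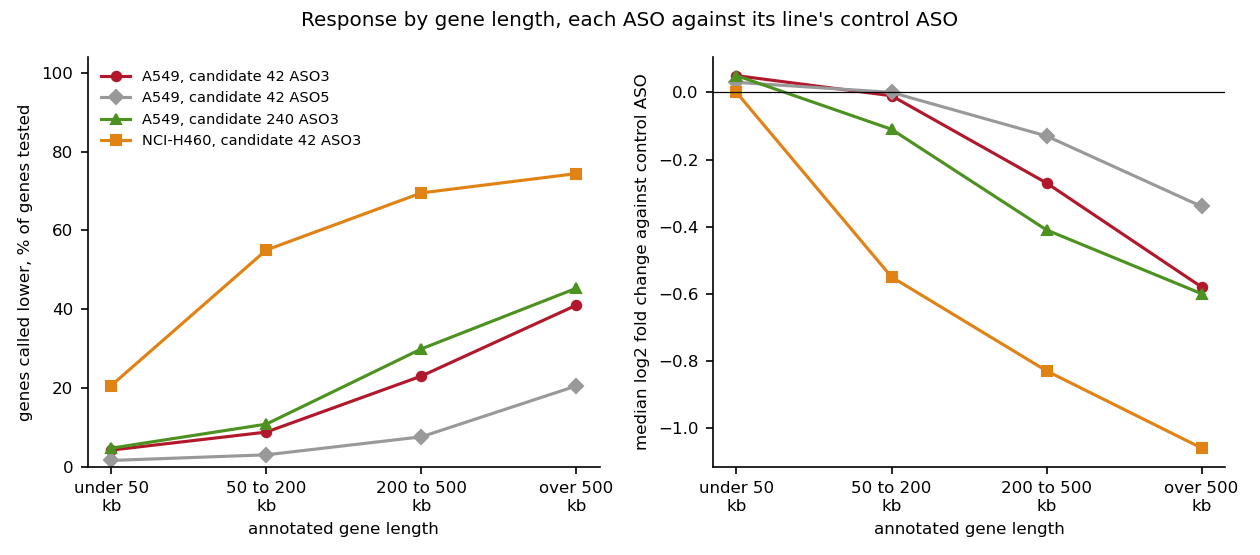
Share of tested genes called lower (left, in percent) and median log2 fold change (right) in 4 classes of annotated gene length, for candidate 42 ASO3 in A549 (red circles), and for comparison candidate 42 ASO5 (grey diamonds) and candidate 240 ASO3 (green triangles) in A549 and candidate 42 ASO3 in NCI-H460 (orange squares). The A549 comparisons share control libraries. The ASO3 line runs from 4.21% to 41.0% lower, and the over 500 kb class reaches 20.5%, 45.3% and 74.4% in the other 3.

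The same length classes ran in the same direction for candidate 42 ASO5 and candidate 240 ASO3 in A549 and for candidate 42 ASO3 in NCI-H460. Over 500 kb, 41.0% of genes were called lower with candidate 42 ASO3 in A549, 20.5% with candidate 42 ASO5, 45.3% with candidate 240 ASO3, and 74.4% with candidate 42 ASO3 in NCI-H460. Over all genes tested those comparisons called 6.63%, 2.40%, 7.82% and 32.8% lower, and 3.43%, 1.42%, 6.0% and 13.2% higher. The A549 comparisons share their control libraries, while NCI-H460 has its own. In ASO3 minus ASO5, which uses no control library, 16.2% of the genes over 500 kb were lower with ASO3, against 4.67% of those under 50 kb.

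The response to ASO3 differed from that to ASO5, which is directed at the same RNA. Against control, limma called 563 genes with ASO5 (3.82%), 209 higher (1.42%) and 354 lower (2.40%). In the direct contrast of the libraries limma called 1570 genes (10.7%), 682 higher (4.63%) and 888 lower (6.02%) with ASO3, and 3152 with the replicate number as a block. Without single libraries the total was lowest at 912, without ASO3 replicate 5, and was 939 and 968 without ASO5 replicate 4 or 5 and 973 without ASO3 replicate 4. AC107959.3 itself was lower with ASO3, at 0.650 ± 0.583 TPM, than with ASO5, at 3.42 ± 1.21 TPM (log2 difference -1.89, adjusted p = 0.00535). With ASO5 against control, at 7.61 ± 2.76 TPM, AC107959.3 did not pass (log2 fold change -1.03, limma, adjusted p = 0.166). A fall of this RNA with ASO5 was therefore not established here. Of the 505 genes higher with ASO3 than in control, 217 were also called higher than with ASO5 and 2 lower, and of the 977 lower, 528 were also called lower than with ASO5 and 10 higher. Since ASO3 enters both contrasts, these shares are descriptions.

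Many of the sharpest changes were found with ASO3 and not with ASO5 at a comparable size. P2RX5 was lower with ASO3 than with ASO5 (log2 difference -2.92), as were MSRA (-2.79), CCNY (-2.78), VCL (-2.77) and PITRM1 (-2.74). The adjusted p of each was at most 5.22e-06. Their log2 fold changes for ASO5 against control were 0.16, -0.13, 0.27, 0.29 and 0.32, and none passed. In the other direction TRIM31 (2.53), MXRA8 (2.30), DHX32 (2.20), REPS1 (2.09) and LGALS4 (2.09) were higher with ASO3 than with ASO5. DHX32 and REPS1 did not pass against control with ASO3 (0.12, adjusted p = 0.749, and 0.28, adjusted p = 0.347) and were lower than control with ASO5 (-2.08 and -1.81). In the ER list 14 of 32 genes were lower and 0 higher with ASO3 than with ASO5, and in the basement membrane list 12 of 19 and 0. HSPA5 differed by -0.53 (adjusted p = 0.00251) and COL18A1 by -1.46 (adjusted p = 2.93e-06). By contrast PGF (0.17, adjusted p = 0.641), LRMDA (0.14, adjusted p = 0.840), SMYD3 (-0.19, adjusted p = 0.556) and BDKRB2 (0.06, adjusted p = 0.929) showed no difference between the oligonucleotides that passed.

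Most of the named protein-coding rises and falls were also called, in the same direction, with candidate 240 ASO3, an oligonucleotide against another RNA. That comparison uses the same control libraries. MSRA had a log2 fold change of -2.91 with candidate 42 ASO3 and -2.46 with candidate 240 ASO3 (adjusted p = 1.16e-06), and LGALS4 had 2.14 and 2.13 (adjusted p = 4.62e-05). THSD4 had -3.17 with candidate 42 ASO3 and -2.57 with candidate 240 ASO3, RBFOX3 -2.32 and -3.11, EPS8L3 1.77 and 1.81, and CLDN7 1.97 and 1.61, all called in both comparisons. P2RX5 (0.04), CCNY (-0.04), VCL (-0.13), PITRM1 (0.38) and TRIM31 (0.37) did not pass with candidate 240 ASO3. In the ER list 13 of 32 genes fell with candidate 42 ASO3 and 14 with candidate 240 ASO3, with medians of -0.42 and -0.45. In the basement membrane list 13 of 19 fell with candidate 42 ASO3 (median -0.67), and 8 fell and 1 rose with candidate 240 ASO3 (median -0.51). In the interferon-stimulated list 8 of 28 rose with candidate 42 ASO3 and 13 with candidate 240 ASO3, with medians of 0.27 and 0.52. The background for candidate 240 ASO3 is 7.82% lower and 6.0% higher over all genes.

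The same ASO3 in NCI-H460 gave a partly shared response. Of the A549 genes called higher, 400 were tested in both lines. Of these, 149 (37.2%) were called higher in NCI-H460, against 13.7% of all 12760 genes tested in both. Another 46 (11.5%) were called lower there, against 33.2% of all. The 149 shared genes were 8.53% of the 1746 NCI-H460 calls higher, where 400 of the 12760 genes were called higher in A549. Of 851 genes called lower in A549 and tested in both, 501 (58.9%) were called lower in NCI-H460, against 33.2% of all. Another 16 (1.88%) were called higher there, against 13.7% of all. The 501 shared genes were 11.8% of the 4234 NCI-H460 calls lower, where 851 of the 12760 genes were called lower in A549. APOE rose in both lines (2.73 in A549 and 2.54 in NCI-H460), as did PGF (1.86 and 1.52) and CYSRT1 (1.78 and 1.49). THSD4 (-3.17 and -3.18), VCL (-2.48 and -3.09), PITRM1 (-2.43 and -2.58), BCAS3 (-2.30 and -2.44) and SMAD3 (-1.41 and -1.64) fell in both.

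The difference between the lines was tested as an interaction, A549 minus NCI-H460. Limma called 2909 of 14769 genes (19.7%), 2286 higher (15.5%) and 623 lower (4.22%). The median over all genes was 0.15, and after median-of-ratios scaling it was -0.08 with 1172 called higher and 1333 lower, so the split between directions rests on the scaling. The count also rested on single libraries, at 273 without NCI-H460 ASO3 replicate 1, 3800 without NCI-H460 ASO3 replicate 2, 1047 and 761 without NCI-H460 control replicate 1 or 2, and 1342, 1553 and 1627 without A549 control replicate 3 or ASO3 replicate 4 or 5. Among protein-coding genes that averaged 5 TPM or more in a group, the largest positive differences were in ZNF573 (3.84), CDH13 (2.97), EPHA5 (2.84), RBM14-RBM4 (2.82) and PTPRD (2.81). CDH13, EPHA5 and PTPRD averaged at most 0.151 TPM in the A549 ASO3 and control groups, and fell in NCI-H460. The largest negative ones were in AC011511.4 (-4.23), ZACN (-3.68), AC010422.3 (-3.56), RBFOX3 (-2.47) and BRICD5 (-2.44). AC011511.4 averaged 0.260 TPM with ASO3 and 0.0668 TPM in control in A549, and RBFOX3 averaged 0.422 TPM with ASO3 and 0.326 TPM in control in NCI-H460, so each of these differences is mainly the fold change of the other line.

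The basement membrane list also fell in NCI-H460, with 11 of 18 tested members called lower, 1 higher and a median of -0.80. Over all genes tested there, 32.8% were called lower and 13.2% higher. By the interaction test 5 of 21 members of that list were lower in A549 and 1 higher, beside 4.22% and 15.5% over all genes. Among these matrix genes, COL18A1 fell by 1.93 in A549 and had -0.01 in NCI-H460 (difference -1.92, adjusted p = 3.62e-06). COL4A2 had -1.38 in A549 and -0.13 in NCI-H460 (difference -1.26, adjusted p = 0.00684). Of the ER list, CRELD2 had -1.0 in A549 and 0.13 in NCI-H460 (difference -1.13, adjusted p = 0.00449). HSPA5, with -0.76 in A549 and -0.77 in NCI-H460, had a difference of 0.01 that did not pass (adjusted p = 0.953). OAS1 rose by 1.10 in A549 and had 0.17 in NCI-H460 (difference 0.93, adjusted p = 0.00595). Of 32 interferon-stimulated genes tested in NCI-H460, 8 were called higher and 7 lower, with a median of 0.09.

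The authors' deposited table of this comparison lists 18736 genes, of which 2115 have a q-value under 0.05, 889 higher and 1226 lower with ASO3. Of 1913 such genes of the authors' deposited table that were tested here, 1317 were called here with the same sign. These are 68.8% of the genes of the authors' deposited table tested here and 88.9% of the 1482 calls. AC107959.3, called here, has a q-value of 0.0678 in the authors' deposited table and so is not among its 2115 genes. The same holds for RNU6-722P (0.0513), RNU6-1161P (0.0566) and AC008083.3 (0.0770).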

How the data were processed

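All 25 libraries came from column-purified total RNA by a NEBNext Ultra protocol, per the labels' protocols. Per the submitters' processing notes, the work used kallisto, sleuth 0.30 and hg38. The main table was deposited by the authors as a signal, TPM per gene name, rescaled between libraries (947369 to 1066349 in total per library here), so depth is unknown and no counting interval is given. The authors' deposited table holds, per gene, the log2 fold change and the q-value (a p-value adjusted in a way not given in the sources used here). Its log2 values equal the ratio of its means to within 7.12e-06, and its mean signal columns are 1.00 (ASO3) and 0.997 (control) of the TPM means. Positions and lengths are from GENCODE release 29, and 494 tested names had none. Promoters are from RefSeq, GRCh38.p14.

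Computed here: log2(TPM + 0.5), which understates changes of low genes, and limma 3.58.1 in R 4.3.3 (eBayes with a trend) over the 5 A549 groups (10 residual degrees of freedom), with filter, two-sided test and Benjamini-Hochberg adjustment over all tested genes. The line difference used all 25 libraries (15 residual degrees of freedom), and NCI-H460 alone had 5. Group errors are SD and fold change errors SE. The planned test on TPM was kept although the unit is rescaled. The scripts were tested on simulated data. Named genes were the 12 protein-coding and 4 other genes with the largest change in each direction among non-overlapping calls of at least 5 TPM, up to 5 called and 3 central members of each list, and 5 protein-coding genes a direction for each difference. Members and lists were chosen with earlier results of these data known. ASO3 and ASO5 libraries of the same number deviated together (r across genes 0.41, 0.18 and 0.13), which met a threshold of 0.1 for pairing. Those of ASO3 and control (0.39, 0.11 and 0.09) narrowly did not meet that rule. Since ASO3 replicate 4 correlated better with ASO5 replicate 5 (0.25) than with ASO5 replicate 4, pairing by number is uncertain. The main contrast of ASO3 with ASO5 is unpaired. XIST and some list members are not reported here. Alternatives were another pseudocount, filter, scaling, set of groups, block, variance model, and leaving out libraries.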

Additional observations from a re-analysis of the deposited data

Results flagged for a closer look

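For 16 of the genes named by size of change, the response to candidate 42 ASO3 differed between A549 and NCI-H460 by the interaction test of limma over all 25 libraries (Benjamini-Hochberg adjusted p). Values are the log2 fold change in A549 minus that in NCI-H460. Groups of 3 libraries were not tested for outlying samples.

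The difference was positive for LGALS4 (2.38, adjusted p = 0.00200), TRIM31 (2.37, adjusted p = 7.55e-04), TFF1 (2.0, adjusted p = 0.0254), TM4SF5 (1.77, adjusted p = 0.00365), AC084864.1 (1.76, adjusted p = 0.0240), EPS8L3 (1.66, adjusted p = 0.00735), PHOSPHO1 (1.63, adjusted p = 0.00697), RASD1 (1.57, adjusted p = 0.00266), CLDN7 (1.37, adjusted p = 0.0272) and NR4A2 (1.3, adjusted p = 0.00774). In NCI-H460, LGALS4 averaged 0.725 TPM with ASO3 and 0.965 TPM in control, TRIM31 averaged 0.0380 TPM with ASO3 and 0.0632 TPM in control, EPS8L3 averaged 0.104 TPM with ASO3 and 0.0575 TPM in control, and PHOSPHO1 averaged 0.0755 TPM with ASO3 and 0.0238 TPM in control. RASD1 averaged 0.445 TPM with ASO3 and 0.265 TPM in control there, and AC084864.1 0.682 TPM with ASO3 and 0.405 TPM in control. TFF1 and TM4SF5 were listed at 0 in both NCI-H460 groups. For these 8 genes, all under 1 TPM in NCI-H460, the difference largely restates the A549 fold change. CLDN7 and NR4A2 were above 5 TPM in both NCI-H460 groups.

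The difference was negative for RBFOX3 (-2.47, adjusted p = 0.00248), AC107959.3 (-1.85, adjusted p = 0.0321), AC009878.1 (-1.79, adjusted p = 0.0281), P2RX5 (-1.19, adjusted p = 0.0165), MSRA (-1.16, adjusted p = 0.00704) and ZNF875 (-0.96, adjusted p = 0.00458). RBFOX3 averaged 0.422 TPM with ASO3 and 0.326 TPM in control in NCI-H460 and AC009878.1 was listed at 0 in both groups, so these differences too largely restate the A549 fold change. AC107959.3 averaged 0.529 TPM with ASO3 and 1.75 TPM in control in NCI-H460 (log2 fold change -1.08, limma, adjusted p = 0.0302). At that level the added 0.5 TPM understates a fall. Without it, the AC107959.3 means still lay further apart in A549, at 0.650 TPM with ASO3 and 7.61 TPM in control. The part of the added value and of the low level in this difference was not tested. P2RX5 and MSRA fell in both lines, by 1.57 and 1.75 in NCI-H460.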

How the results depend on the processing

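Of 167 genes named by rule or list, 149 were called, 101 of them kept the call without each of the 6 libraries in turn, and 95 under every alternative. None of the 149 called values changed sign under an alternative run. The 1482 calls of ASO3 against control were 761 when fitted on those groups alone and 3112 with the replicate number as a block. Without single replicates, or without replicate 3 of all groups (chosen after seeing the data), they lay between 833 and 3064. ASO3 and control libraries of the same number correlated at 0.39, 0.11 and 0.09 in their deviations, and ASO3 replicate 4 correlated best with control replicate 5 (0.24), so the block is a hint from the data only. The 1570 calls of ASO3 minus ASO5 became 3152 with the block and 912 to 1256 without single replicates. The 2909 calls of A549 minus NCI-H460 became 1675 with no filter on low values, 853 with the compared groups alone, 5638 with the block and 273 to 3800 without single replicates. Median-of-ratios scaling gave 1447 calls of ASO3 against control, 474 higher and 973 lower. The cause of these shifts was not tested. Read depth is unknown, so levels near 0 carry no counting error.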

Other observations

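The remaining lists held few calls by limma at an adjusted p under 0.05, beside shares of 3.43% higher and 6.63% lower over all genes. Of 33 genes of hypoxia and glycolysis 3 rose and 2 fell with ASO3. The lactate exporter gene SLC16A3 stood at 444, 292 and 322 TPM with ASO3, against 193, 156 and 134 TPM in control (log2 fold change 1.12), and the aldolase gene ALDOC rose by 0.91. The vasodilator peptide gene ADM fell by 1.0. Of 27 genes of the ATF4 stress response, 2 fell, the paired amino acid transporter genes SLC7A5 (-0.99) and SLC3A2 (-0.68, lost without 4 of the 6 libraries in turn). The counts were 2 higher and 1 lower without control replicate 5, and 0 higher and 1 lower without control replicate 3 or ASO3 replicate 4 or 5. SLC7A5 stood at 490, 391 and 406 TPM with ASO3, against 794, 735 and 1035 TPM in control. Of 37 genes of mitochondrial peptidases, import and translation 2 rose and 3 fell, with FARS2, a mitochondrial tRNA synthetase gene, at 6.72, 5.11 and 4.12 TPM with ASO3, against 15.5, 12.6 and 14 TPM in control (-1.34).

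Of 18 nuclear noncoding RNAs 1 rose and 2 fell. H19, an imprinted noncoding RNA, stood at 14.9, 12.5 and 13.5 TPM with ASO3, against 6.49, 8.43 and 4.17 TPM in control (1.09), and PVT1 fell by 1.07. NEAT1, the scaffold of paraspeckles, fell by 0.77, a call lost without 4 of the 6 libraries in turn. Of 18 genes of MHC class I presentation 2 fell, CALR and PDIA3 (-0.57, lost without ASO3 replicate 5). Of 33 genes of the BCL2 family and death receptors 3 rose and 1 fell, of 32 of ER to Golgi transport 1 rose and 2 fell, and of 30 of ribosome biogenesis 1 rose and 1 fell. Of 27 of RNase H and nuclear RNA decay, and of 15 mitochondrially encoded genes, 1 rose and 0 fell. These low counts rested on single libraries. The BCL2 list had 0 higher and 1 lower without ASO3 replicate 3, 1 and 0 without ASO3 replicate 4, 2 and 0 without ASO3 replicate 5 or control replicate 3 or 4, and 0 and 0 when the compared groups were fitted alone. The ER to Golgi list had 0 calls without control replicate 3 or ASO3 replicate 4 or 5, and 6 higher and 3 lower without replicate 3 of every A549 group. The ribosome biogenesis list had 0 calls without replicate 5 of either group, the RNase H list 0 without replicate 5 of either group, control replicate 3 or ASO3 replicate 4, and the mitochondrially encoded list 0 without replicate 3 or 5 of either group. Without replicate 3 of every A549 group the hypoxia list had 7 higher and 8 lower.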
